A study of Mus musculus with 6 samples.

Results

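The genes described here are Tgfbr3, which encodes the TGF-beta co-receptor betaglycan, and 9 genes of the pathway it serves. They are the receptors Tgfbr1 and Tgfbr2, the ligands Tgfb1, Tgfb2 and Tgfb3, and the signal transducers Smad2, Smad3, Smad4 and Smad7. These 10 genes were taken by name from the 48709 genes in the count files. Tgfbr3 was chosen by its gene counts in these 6 libraries, which were known to differ between the genotypes, so that difference is given as a description with no test. The other 9 were picked for their role in the pathway, and their tests come from a fit over all genes. RNA was measured in the dissected neocortex of 6 C57BL/6 mouse embryos at stage E15.5. The 3 mutant embryos, called Rest_het, were heterozygous for an allele of the zinc-finger repressor gene Rest that lacks exon 4, and the 3 others were wild type (WT). The sample titles call the mutants KO, while the genotype label gives them as heterozygous. The labels state no sex or litter for either genotype, so their part in a difference cannot be told apart from that of genotype. The p-values set a difference between genotypes against the spread between the 3 libraries of each.

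TGF-beta ligands are made as latent dimers that must be released before they can bind. Betaglycan holds the ligand at the cell surface and hands it to Tgfbr2, a kinase that then activates the kinase Tgfbr1. Activated Tgfbr1 phosphorylates Smad2 and Smad3, which enter the nucleus with Smad4, while Smad7 blocks this step. Betaglycan has a short cytoplasmic tail with no kinase. It is known for its strong binding of the Tgfb2 product and for serving inhibin as a co-receptor. In the embryonic brain the pathway is known for its part in blood vessel growth and in signals from the meninges.

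The coding sequences below show the parts of the pathway's products that these roles rest on. They were read 5′ to 3′ on the coding strand from GENCODE M21 transcripts on GRCm38. In Tgfbr3 the capitals mark the last 3 codons before the stop, the end of the tail that binds the scaffold protein encoded by Gipc1 (chr5:107109639-107109701, minus strand). In Smad3 they mark the last 4 codons, which hold the serines phosphorylated by Tgfbr1 (chr9:63650262-63650324, minus strand).
Tgfbr3: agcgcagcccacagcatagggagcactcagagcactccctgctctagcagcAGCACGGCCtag
Smad3: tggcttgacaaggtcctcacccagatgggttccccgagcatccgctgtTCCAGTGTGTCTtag

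The ligand genes are shown around the point where the precursor is cut to free the mature ligand, and the capitals mark the 4 codons before the cut. They lie at chr7:25697211-25697272 on the plus strand for Tgfb1, at chr1:186630610-186630671 on the minus strand for Tgfb2 and at chr12:86062028-86062089 on the minus strand for Tgfb3. Over the 336 coding bases that follow the cut, Tgfb1 and Tgfb3 were identical at 73.5%, Tgfb2 and Tgfb3 at 70.8%, and Tgfb1 and Tgfb2 at 68.8% of positions.
Tgfb1: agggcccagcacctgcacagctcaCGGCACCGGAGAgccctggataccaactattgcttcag
Tgfb2: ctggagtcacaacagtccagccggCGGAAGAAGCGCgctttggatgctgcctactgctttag
Tgfb3: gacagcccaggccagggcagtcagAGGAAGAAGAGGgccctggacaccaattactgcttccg

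Levels are given as CPM, the share of a library's gene reads multiplied up to a common depth, with libraries scaled by the TMM method. They rest on 17835117 to 18426652 gene reads in Rest_het libraries and 19996943 to 20753653 in WT libraries. Rest itself measured 16.7, 19.0 and 18.6 CPM in Rest_het against 21.03, 19.7 and 21.1 CPM in WT libraries (edgeR adjusted p = 0.49), and a count over all exons does not check the loss of exon 4. The groups differed in more than the Rest allele: Cre-ERT2 reads occurred in Rest_het libraries and LacZ reads in WT libraries, as counted in the closing section, and the part of these sequences in any difference cannot be told apart from that of the Rest allele. A gene counts as called where edgeR's quasi-likelihood test over 15385 genes gave a p under 0.05 after Benjamini-Hochberg adjustment. All 10 neocortex marker genes, among them Emx1 and Tbr1, had reads in every library. Their summed level was 1730 to 1888 CPM in Rest_het and 1892 to 2165 CPM in WT libraries, so the ranges nearly met. Of the 10 markers, the groups did not overlap in 1 that was higher and 1 that was lower in Rest_het. The shares over all tested genes were 10.4% and 8.94%.

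Tgfbr3 was well expressed in the cortex of the mutants and low in that of WT embryos. It had 938, 617 and 1437 reads in Rest_het replicates 1, 2 and 3 against 96, 30 and 59 reads in WT replicates 1, 2 and 3. This amounted to 50.7, 34.2 and 76.3 CPM in Rest_het against 4.59, 1.58 and 3.04 CPM in WT libraries. The lowest mutant lay 7.45-fold above the highest WT library. Group means were 53.7 ± 21.2 CPM in Rest_het and 3.07 ± 1.503 CPM in WT libraries (SD, n = 3 each), and the log2 fold change was 4.12 with an SE of 0.41. Leaving out single libraries moved that value between 3.78, without Rest_het replicate 3, and 4.53, without WT replicate 1. Tgfbr3 occupies 183 kb on the minus strand of chromosome 5, from 107106570 to 107289629 in GRCm38. Rest lies on the same chromosome, 29.8 Mb from Tgfbr3. Of the 19 genes called by edgeR, 9 lay on chromosome 1, 6 on chromosome 5, with Tgfbr3 counted among them, and 4 on chromosome 8. The share of all tested genes on each of these chromosomes was not measured. The part of sequence linked to the mutant allele cannot be told apart from that of the allele itself, and was not tested.

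**Figure D1:**
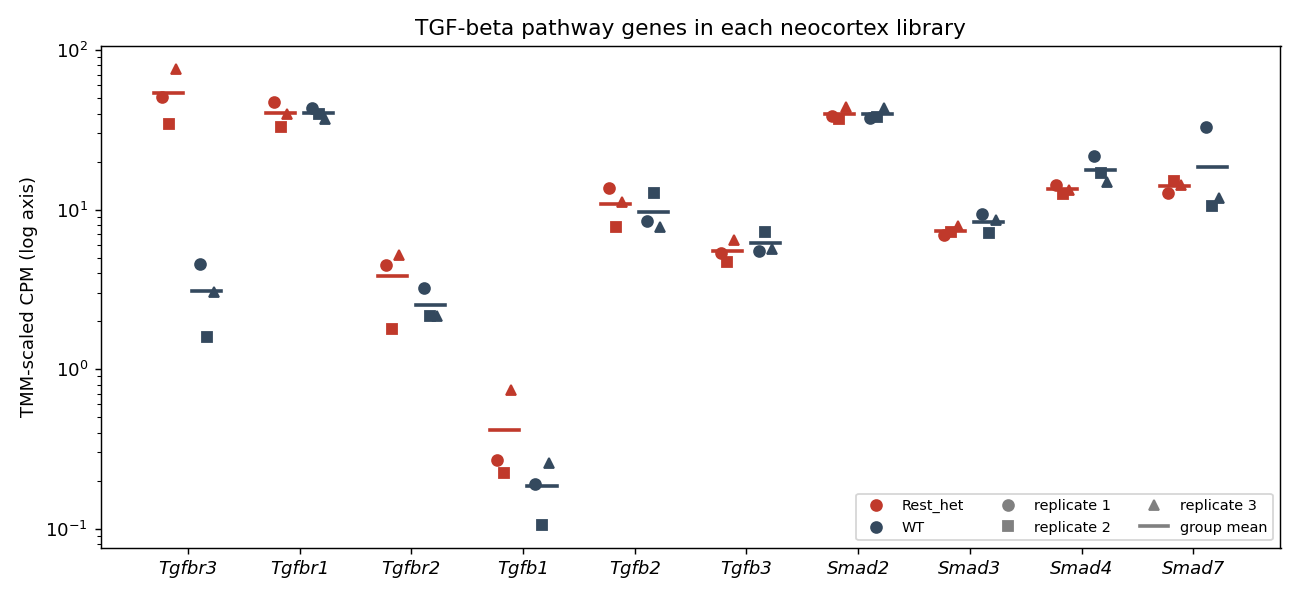
TMM-scaled CPM on a log axis for the 10 genes in each library, with Rest_het left of WT for each gene, a symbol per replicate and a line at the group mean. Tgfbr3 lies between 34.2 and 76.3 CPM in Rest_het libraries and between 1.58 and 4.59 CPM in WT libraries, while most other genes overlap between the genotypes.

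Within each genotype Tgfbr3 also varied more than most genes. The highest Rest_het library had 2.23 times the level of the lowest, and the highest WT library 2.90 times that of the lowest. The SD of log2 CPM was 0.58 in Rest_het and 0.74 in WT libraries, against medians of 0.171 and 0.184 over all genes tested. Among the other receptor genes, Tgfbr2 had SDs of 0.81 in Rest_het and 0.31 in WT libraries and Tgfbr1 0.27 and 0.12.

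This spread ran in the same library order as that of markers of vessels and meninges. In Rest_het libraries the order was replicate 3, 1, 2 and in WT libraries replicate 1, 3, 2. The same order in both genotypes was held by 8 of 10 endothelial markers, among them the adhesion genes Pecam1 and Cdh5, and by 7 of 10 meningeal markers, among them the collagen genes Col1a1 and Col3a1. It was held by 832 of all 15385 tested genes, or 5.41%, and by 3 of 10 mural, 3 of 10 microglial, 2 of 6 tested choroid plexus, 0 of 8 erythroid and 0 of 10 neocortex markers. Tgfbr2 held it too, although 2 of its WT libraries were nearly equal.

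Summed meningeal markers measured 334, 178 and 491 CPM in Rest_het replicates 1, 2 and 3 against 466, 172 and 251 CPM in WT replicates 1, 2 and 3. The genotypes overlapped in these markers. They did not in Tgfbr3, but that is the difference it was chosen for, so setting the markers beside it is no test. Per 100 meningeal marker reads there were 15.2, 19.2 and 15.6 Tgfbr3 reads in Rest_het and 0.984, 0.921 and 1.21 in WT libraries.

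The sums of the other marker lists were as follows. Summed endothelial markers measured 113 to 176 CPM in Rest_het and 99.3 to 183 CPM in WT libraries, with 30.2 to 43.3 Tgfbr3 reads per 100 marker reads in Rest_het and 1.59 to 2.51 in WT libraries. Mural markers summed to 1491, 1202 and 263 CPM in Rest_het replicates 1, 2 and 3 and to 192 to 281 CPM in WT libraries. There were 2.85 to 29.001 and 0.825 to 1.63 Tgfbr3 reads per 100 mural marker reads. The median log2 fold change of the 10 mural markers was 0.26, so their sum does not describe most of the list. Of the 10, 1 was higher at an unadjusted edgeR p under 0.05, against 6.98% of all tested genes, and edgeR called 0 after adjustment. Microglial markers summed to 61.5 to 74.95 CPM in Rest_het and 55.4 to 66.2 CPM in WT libraries, with 55.6 to 102 and 2.86 to 6.93 Tgfbr3 reads per 100. Erythroid markers summed to 321 to 670 CPM in Rest_het and 527 to 666 CPM in WT libraries, with 6.995 to 15.8 and 0.300 to 0.689 Tgfbr3 reads per 100. In these lists the Tgfbr3 reads per marker read did not overlap between the genotypes. The choice of Tgfbr3 by its difference made this likely, so it is no test of the part of these cells.

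In the choroid plexus list the Tgfbr3 reads per marker read did overlap between the genotypes. Its markers summed to 181, 9.53 and 378 CPM in Rest_het replicates 1, 2 and 3 against 60.1, 4.22 and 5.66 CPM in WT replicates 1, 2 and 3. Per 100 of their reads there were 27.9, 359 and 20.2 Tgfbr3 reads in Rest_het and 7.64, 37.5 and 53.6 in WT libraries. All 6 tested choroid plexus markers lay above 0, and the median of their log2 fold changes was 1.84. Of the 6, 3 were higher in Rest_het at an unadjusted edgeR p under 0.05, against 6.98% of all tested genes, and edgeR called 0 after adjustment. Most of the sum was Ttr, the thyroid hormone carrier, with 169, 5.49 and 357 CPM in Rest_het and 53.0, 2.27 and 3.09 CPM in WT libraries. Folr1 of the choroid plexus was the only listed marker with 0 reads in some library. In bulk tissue more cells of a type and more RNA per cell cannot be told apart. The part of these cells in the level of Tgfbr3 was not tested.

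**Figure D2:**
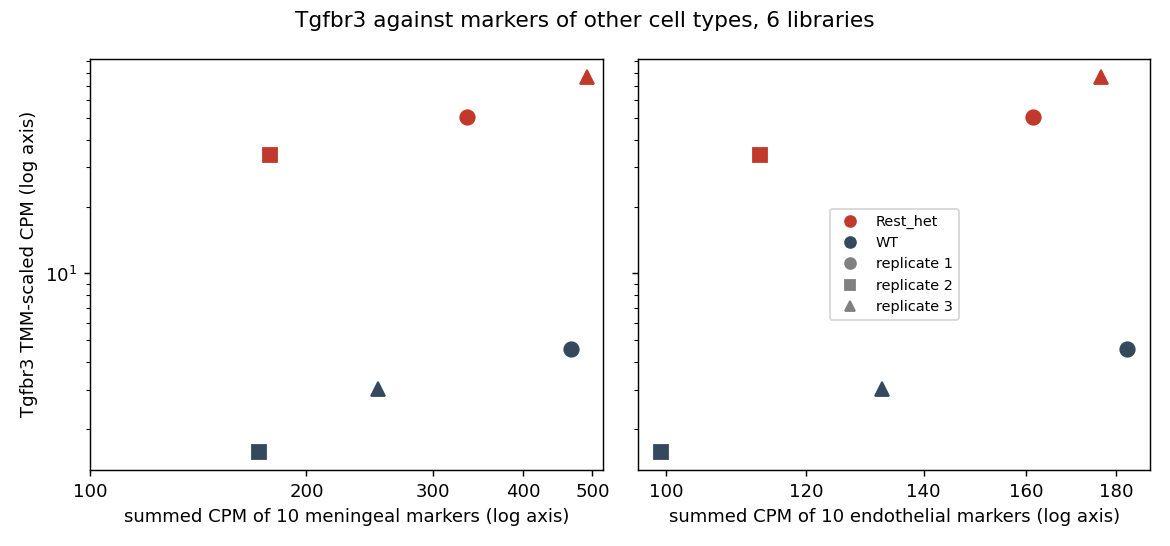
Tgfbr3 CPM against the summed CPM of 10 meningeal (left) and 10 endothelial markers (right) in the 6 libraries, on log axes, with red for Rest_het, dark blue for WT and a symbol per replicate. The marker sums overlap between the genotypes (178 to 491 against 172 to 466 CPM for the meninges). Every Rest_het library lies above every WT library in Tgfbr3, the difference for which Tgfbr3 was chosen.

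The signal-transmitting receptors differed less between the genotypes than between embryos. Tgfbr1, the type I kinase, measured 47.4, 32.7 and 40.0 CPM in Rest_het against 43.5, 39.7 and 36.8 CPM in WT libraries. The groups overlapped, with a fold of Rest_het over WT between 0.827 and 1.21 (95% interval, edgeR adjusted p = 0.999). Tgfbr2, the type II kinase, measured 4.49, 1.77 and 5.15 CPM in Rest_het against 3.20, 2.16 and 2.16 CPM in WT libraries. Rest_het replicate 2 was the lowest of all 6 and the other mutants the highest. Its fold was 1.51 with an interval from 0.890 to 2.57 and an edgeR adjusted p of 0.56, so a change as large as that of Tgfbr3 lay outside the interval.

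The ligands were low to moderate. Tgfb1, the main TGF-beta of blood and immune cells, had 5, 4 and 14 reads in Rest_het against 4, 2 and 5 reads in WT libraries, and it did not pass the filter on low counts. Tgfb2 measured 13.6, 7.81 and 11.2 CPM in Rest_het against 8.46, 12.7 and 7.83 CPM in WT libraries. The groups overlapped, with a fold of 1.13 (interval 0.802 to 1.58, edgeR adjusted p = 0.81). Predicted genes on the opposite strand, Gm26169 and Gm29491, overlap Tgfb2, and reads that fell on more than 1 gene were left out as ambiguous. Tgfb3 measured 5.35, 4.71 and 6.43 CPM in Rest_het against 5.50, 7.28 and 5.66 CPM in WT libraries, a fold of 0.895 (interval 0.688 to 1.17, edgeR adjusted p = 0.77). Tgfb3 overlaps Ttll5 on the opposite strand, and the library chemistry does not mark strand. Adding its counts from the strand-specific columns gave 1.11 times its unstranded count. Reads that cannot be told apart from those of its neighbour were thus left out of the level given here.

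Of the Smads, Smad2 measured 38.9, 36.7 and 44.2 CPM in Rest_het against 37.6, 37.8 and 43.2 CPM in WT libraries. Its genotypes overlapped and the fold lay between 0.878 and 1.16 (edgeR adjusted p = 0.97). Smad3 measured 6.92, 7.20 and 7.91 CPM in Rest_het against 9.37, 7.17 and 8.65 CPM in WT libraries, with overlap and a fold of 0.874 (interval 0.708 to 1.08, edgeR adjusted p = 0.64). The common partner Smad4 measured 14.2, 12.6 and 13.3 CPM in Rest_het against 21.6, 16.9 and 14.9 CPM in WT libraries. Each mutant lay below each WT library, and the log2 fold change was -0.41 with an SE of 0.15, yet the gene missed the threshold (edgeR adjusted p = 0.38). The inhibitor Smad7 measured 12.7, 15.1 and 14.3 CPM in Rest_het against 33.1, 10.5 and 11.8 CPM in WT libraries. A single library, WT replicate 1, stood 2.19-fold above the next highest. The log2 fold change of Smad7 was -0.40 with all libraries and 0.33 without that library (edgeR adjusted p = 0.72 and 0.53).

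Of the 9 genes besides Tgfbr3, 8 were tested and 0 were called by edgeR, by DESeq2 or by limma on the deposited normalized values, against 0.123% of all genes tested by edgeR. At an unadjusted edgeR p under 0.05 there was 1 of 8, Smad4, against 11.7% of all tested genes. Groups that did not overlap were found in 1 of 8, Smad4 again, against 19.3% of all tested genes. The members lay on either side of 0, with 4 above and 4 below, and their median log2 fold change was -0.08 against 0.01 over all tested genes.

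Dividing CPM by the length of the merged exons in kilobases (giving RPKM) allowed the genes to be ranked against each other. In Rest_het libraries Tgfbr3 came at rank 1 of 10 with 8.21 ± 3.24 RPKM (SD, n = 3), followed by Tgfbr1 with 6.13 ± 1.13, whose range overlapped that of Tgfbr3 and of Smad2, which had 4.55 ± 0.44 RPKM. In WT libraries Tgfbr3 came at rank 8 with 0.469 ± 0.230 RPKM, above Tgfbr2 with 0.306 ± 0.073 RPKM, with which it overlapped. Tgfbr1 led in WT libraries with 6.12 ± 0.52 RPKM, followed in order by Smad4, Smad2 and Smad7, each of which overlapped the one before it. Smad7 did not overlap the next gene, Tgfb3. Tgfb3, Tgfb2 and Smad3 formed a middle group between 1.52 and 1.82 RPKM in WT libraries, in which neighbours overlapped. Tgfb1 was last in both genotypes, with 0.082 ± 0.057 RPKM in Rest_het and 0.037 ± 0.015 RPKM in WT libraries. On this scale Tgfbr3 stood above 72.3% of tested genes in Rest_het and above 15.7% in WT libraries.

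Beyond the members, 95 further genes of the TGF-beta superfamily were followed in 6 lists, of which 81 were tested. EdgeR called 0 of them, against 0.065% of all genes tested as higher and 0.0585% as lower in Rest_het. DESeq2 called 1, Smad1, against 0.822% of all genes it tested. Before adjustment, 8 of the 81 were higher and 5 lower at an edgeR p under 0.05, against 6.98% and 4.72% of all tested genes. The groups did not overlap in 10 that were higher and 6 that were lower in Rest_het, against 10.4% and 8.94% of all tested genes. The 10 include Snai1, which passed the filter on low counts only through its Rest_het libraries. The values of the genes with the smallest p in each list follow, and none of them passed edgeR's adjusted threshold.

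Among 14 tested receptors and co-receptors, 8 lay above 0 and 6 below. Eng encodes endoglin, the vascular co-receptor that resembles betaglycan. It measured 10.5, 8.20 and 10.9 CPM in Rest_het against 2.87, 4.43 and 7.004 CPM in WT libraries. Each mutant lay above each WT library, and the log2 fold change was 1.06 with an SE of 0.30 (edgeR adjusted p = 0.35). Acvrl1, the kinase that endoglin serves, overlapped between the genotypes, with 2.05 to 4.94 CPM in Rest_het and 2.11 to 4.44 CPM in WT libraries; it was named after its values were seen. Acvr1 and Bmpr2, both receptors for BMP ligands, were lower in each mutant, by log2 values of -0.59 for Acvr1 and -0.28 for Bmpr2 (edgeR adjusted p = 0.36 and 0.35). The activin receptor gene Acvr2a was higher in each mutant, at 0.34 (edgeR adjusted p = 0.38).

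Among 21 tested further Smads and Smad regulators, Smad1 stood lowest. This transducer of BMP signals measured 36.7, 40.4 and 40.7 CPM in Rest_het against 54.3, 55.2 and 63.0 CPM in WT libraries. Its log2 fold change was -0.55 with an SE of 0.09, the edgeR adjusted p was 0.15 and that of DESeq2 0.0022. Smad1 lies on chromosome 8, 5.46 Mb from Farsa, the nearest gene called by edgeR, and all 19 called genes lay on chromosomes 1, 5 and 8. Trim33, a ubiquitin ligase that acts on Smad4, had a log2 fold change of -0.36 and no overlap (edgeR adjusted p = 0.32). Fkbp1a, which encodes the protein FKBP12 that holds Tgfbr1 inactive, was higher in each mutant at 0.30 (edgeR adjusted p = 0.36), and Ndfip1, an adaptor of ubiquitin ligases, had 0.46 with overlap (edgeR adjusted p = 0.38).

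The list of betaglycan partners had 7 tested genes, 5 above 0. Gipc1, whose product binds the tail end marked in the Tgfbr3 sequence above, measured 46.4, 47.3 and 33.6 CPM in Rest_het against 21.2, 28.4 and 32.2 CPM in WT libraries. Arrb2, the beta-arrestin that takes betaglycan into the cell, measured 12.8, 13.7 and 12.1 CPM in Rest_het against 6.31, 8.17 and 9.68 CPM in WT libraries. In both genes each mutant lay above each WT library, with log2 fold changes of 0.64 (SE 0.18, edgeR adjusted p = 0.35) and 0.67 (SE 0.17, edgeR adjusted p = 0.32). Gipc1 lies 1.19 Mb from the called gene Farsa on chromosome 8. Inhbb, of the activin genes, lies closer to a called gene, 1.10 Mb from Tsn on chromosome 1. It had a log2 fold change of 0.04 with overlap. The part of position in these values was not tested. Of the metalloprotease genes, Mmp14, whose product sheds betaglycan, had a log2 fold change of 0.46 and Mmp16 one of -0.20 (edgeR adjusted p = 0.51 and 0.45).

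Genes that hold the ligands latent or release them numbered 13 tested, 9 above 0 and 4 below. Itgb8, the integrin chain by which neural progenitors release TGF-beta, measured 4.16, 4.43 and 4.67 CPM in Rest_het against 7.31, 5.64 and 6.03 CPM in WT libraries. Every mutant was below every WT library, with a log2 fold change of -0.52 and an SE of 0.17 (edgeR adjusted p = 0.36). Ltbp1, a latent TGF-beta binding protein, had 0.76 (SE 0.48), Lox, an enzyme of matrix crosslinking, 0.63 (SE 0.50) and Itgb5 0.46 (SE 0.33), all with overlap and edgeR adjusted p of 0.55 to 0.64. Single libraries moved these values: Ltbp1 was at 0.15 without Rest_het replicate 1 and at 1.25 without WT replicate 1, Lox at 0.31 without Rest_het replicate 3 and at 1.43 without WT replicate 1, and Itgb5 at 0.16 without Rest_het replicate 3. Of 5 tested activin and inhibin genes the smallest p belonged to Fst, the activin antagonist follistatin, with 4.49, 3.93 and 4.09 CPM in Rest_het against 1.62, 4.17 and 1.39 CPM in WT libraries (edgeR adjusted p = 0.46). Inha, the inhibin subunit gene, had a log2 fold change of 0.31, Inhba -0.14 and Inhbb 0.04, each with overlap (edgeR adjusted p = 0.62, 0.75 and 0.95).

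Genes known to respond to TGF-beta signals lay on both sides of 0. Of 21 tested, 12 lay above 0 and 9 below, and the median of their log2 fold changes was 0.06. Snai1, a transcription factor of mesenchymal transitions, measured 0.703, 0.554 and 1.22 CPM in Rest_het against 0.382, 0.211 and 0.463 CPM in WT libraries, without overlap (log2 fold change 1.21, SE 0.47, edgeR adjusted p = 0.40). In WT libraries Snai1 lay below the filter on low counts, which it passed only through the Rest_het libraries. The filter thus made its rise and lack of overlap likely. With a filter of CPM 1 in 3 libraries Snai1 was not tested. Cdkn1a, a cell cycle inhibitor, had 0.40 without overlap (edgeR adjusted p = 0.42), Gadd45b 0.46 with overlap (0.50) and Ccn1, a matricellular protein, 0.27 without overlap (0.53). Pmepa1, a feedback inhibitor of the pathway, measured 251 to 270 CPM in Rest_het and 261 to 295 CPM in WT libraries. Cdkn2b did not pass the filter on low counts. Pmepa1 and Cdkn2b were named after their values were seen.

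**Figure D3:**
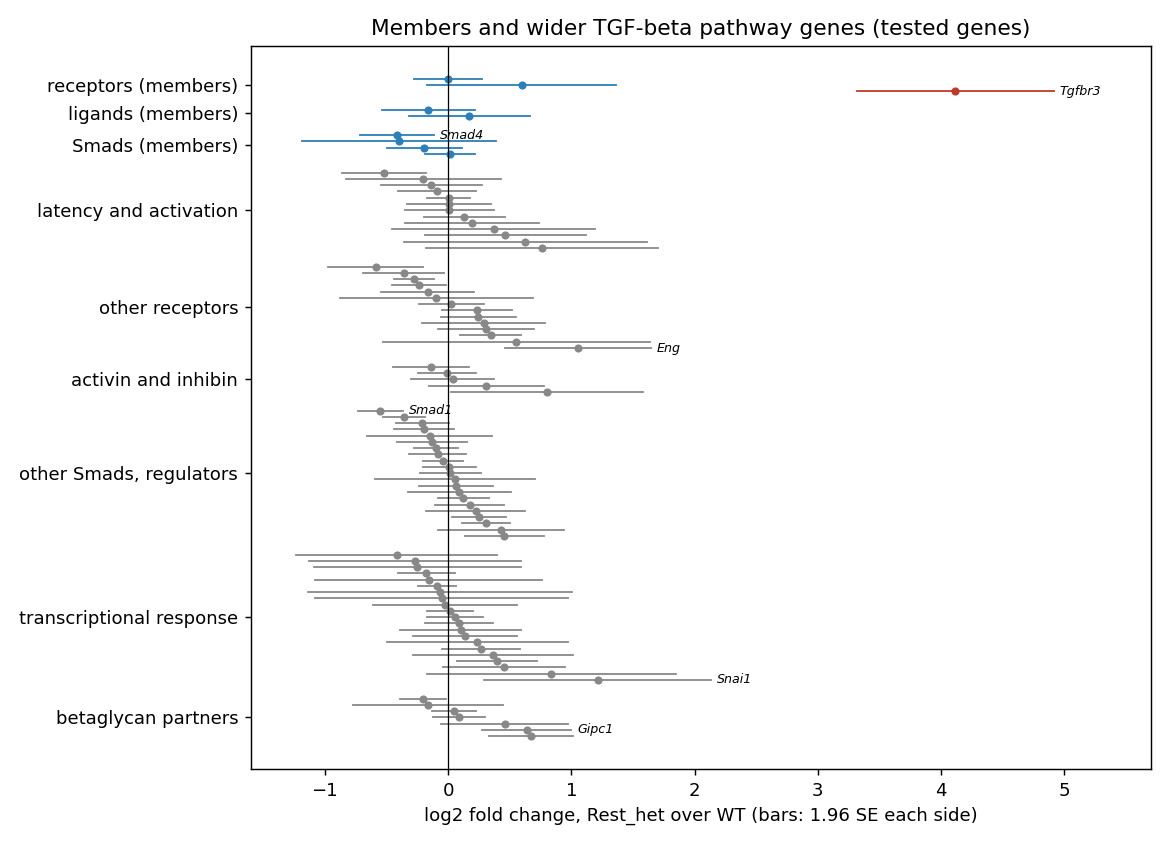
Log2 fold change of Rest_het over WT for each tested gene of the members and the 6 wider lists, sorted within each list, with bars for approximate 95% intervals. Tgfbr3 at 4.12 stands apart from all other genes shown, which lie between -0.59 (Acvr1) and 1.21 (Snai1).

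The neighbours of Tgfbr3 were compared because position was not used to choose the members. Of 65 annotated genes within 1 Mb of it, 22 were tested, and edgeR called 0 of them. Before adjustment, 3 of the 22 were higher and 6 lower in Rest_het at an edgeR p under 0.05, against 6.98% and 4.72% of all tested genes. The groups did not overlap in 4 that were higher and 5 that were lower, against 10.4% and 8.94% of all tested genes. Each of these shares was larger among the neighbours than over all genes, and the cause was not tested. The 6 lower genes are not all separate loci. Gm27527 lies inside Hfm1, which is also among the 6, and the snoRNA gene Gm26387 lies inside Rpl5, which is among the 3 higher genes. DESeq2 called 1 of the neighbours, against 0.822% of all genes it tested. This was Barhl2, which lies 648 kb away and measured 2.70, 10.9 and 4.09 CPM in Rest_het against 2.15, 1.11 and 1.65 CPM in WT libraries (edgeR adjusted p = 0.35, DESeq2 adjusted p = 0.027).

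The 3 nearest tested genes on each side of Tgfbr3 showed no rise like its own. Brdt, a bromodomain gene 41.5 kb beyond the start of Tgfbr3, measured 2.59, 1.66 and 2.92 CPM in Rest_het against 3.63, 3.11 and 2.47 CPM in WT libraries (log2 fold change -0.36, edgeR adjusted p = 0.63). Further out on that side, Ephx4, an epoxide hydrolase, had 0.18 with overlap and the pseudogene Gm9727 -0.63 without overlap (edgeR adjusted p = 0.81 and 0.52). On the other side Cdc7, a kinase that starts DNA replication, lies 122 kb away and measured 136, 153 and 142 CPM in Rest_het against 196, 179 and 170 CPM in WT libraries. Each mutant was below each WT library (log2 fold change -0.33, SE 0.09, edgeR adjusted p = 0.33). Hfm1, a meiotic helicase, and Gm27527, a predicted miRNA gene inside it, had -0.82 and -0.91, with overlap in both (edgeR adjusted p = 0.37 and 0.36). The nearest other gene called by edgeR was Gm15446, 2.63 Mb away.

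**Figure D4:**
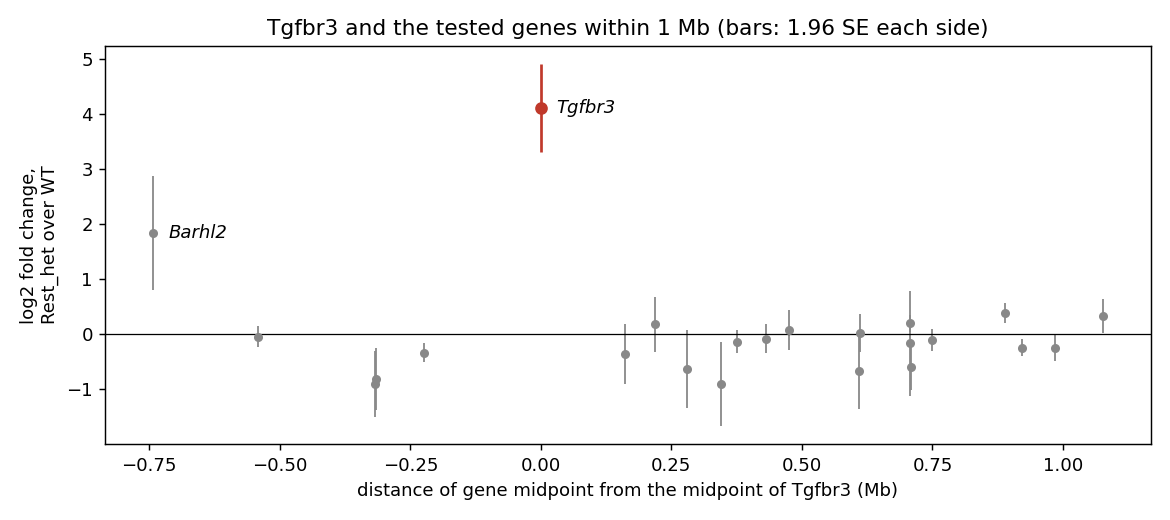
Log2 fold change of Rest_het over WT for Tgfbr3 and the 22 tested genes within 1 Mb, by the distance of gene midpoints in Mb, with bars for approximate 95% intervals. Barhl2 at 1.84 is the next highest after Tgfbr3, and the others lie between -0.91 and 0.39.

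Small annotated genes inside Tgfbr3 had too few reads to measure its introns. Gm43423, of the annotation class for loci to be tested experimentally, lies within an intron on the same strand (chromosome 5, 107158478 to 107160571). It had 6, 2 and 6 reads in Rest_het against 6, 0 and 3 reads in WT libraries, 14 against 9 in all. Scaled for depth, this is a ratio of 1.67 with an exact interval from 0.672 to 4.36 for counting error alone. The reads of Tgfbr3 itself gave a ratio of 17.3. Whether the reads of Gm43423 came from the Tgfbr3 transcript or from one of its own was not tested, so introns and exons were not compared. Gm42900, in another intron, had 1 read in each genotype, and Gm43422, which overlaps an exon of Tgfbr3, and the pseudogene Gm8145 had 0 reads in every library. Reads on the 2 strand columns of Tgfbr3 were even, with 49.6% in the first column in Rest_het and 56.8% in WT libraries.

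Genes whose log2 CPM followed that of Tgfbr3 most closely over the 6 libraries were Pard3b (Pearson r = 0.99), Relb (0.99), Syde1 (0.99), Ndufaf8 (0.99) and Git2 (0.98). The libraries fall into 2 clusters in Tgfbr3, the genotypes, so a high r largely reflects a separation of the genotypes, whatever its size. It is given as a description. Git2, a regulator of Arf GTPases on chromosome 5, measured 193, 196 and 205 CPM in Rest_het against 67.7, 53.0 and 53.7 CPM in WT libraries, a log2 fold change of 1.77 against 4.12 for Tgfbr3. Relb, a subunit of NF-kappaB, measured 1.08, 1.05 and 1.12 CPM in Rest_het against 0.526, 0.316 and 0.412 CPM in WT libraries. Pard3b, a polarity gene, Syde1, and Ndufaf8, an assembly factor of mitochondrial complex I, had log2 fold changes of 0.49, 0.81 and 0.40. Among the TGF-beta lists the closest were Snai1 (r = 0.90), Cdkn1a (0.88) and Bambi (0.83), a decoy receptor that measured 4.54, 3.49 and 4.36 CPM in Rest_het against 3.35, 3.06 and 3.60 CPM in WT libraries. Relb and Snai1 had WT levels near or below the filter on low counts and passed it through their Rest_het libraries.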

How the data were processed

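Libraries were made from oligo-dT-primed, template-switched and PCR-amplified cDNA by Nextera XT tagmentation, per the labels' protocols, and mark neither strand nor molecules. The authors deposited STAR (2.5.2a) gene counts on GRCm38.p4, as listed in the submitters' processing notes. The unstranded counts were used here. Reads in no gene (21.4 to 26.9% of a library), multimapping (6.29 to 7.48%) and ambiguous reads (2.54 to 2.85%), 99 spike-in and 15 transgene sequences were left out. The deposited normalized signal values equal counts over 1 factor per library and served as an alternative.

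Symbols matched 48349 of 48709 IDs, with positions from GENCODE M21. EdgeR 4.0.16 (R 4.3.3) fitted genotype after TMM scaling and filterByExpr (minimum 10, total 15). Intervals are 1.96 SE, and SE is the log2 fold change over the root of F. Likeness used log2 CPM with a prior count of 2. Alternatives used DESeq2 1.42.0 and limma 3.58.1, on log2 of the deposited values plus 1. In simulated counts for this comparison (15095 genes tested), 50 genes were changed at each fold. EdgeR called 6% of genes changed 1.5-fold, 68% of those changed 2-fold and all changed 4-fold. It made 136 calls there against 19 in the real counts, which eases the adjusted threshold, so these shares are likely too high for the real data. Replicates differed beyond sampling noise. Count intervals cover counting error only.

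Members and lists were chosen with earlier results of these data known. Named are the members, Rest, the genes of smallest p in each list (up to 4), the 3 nearest tested neighbours per side and the genes most like Tgfbr3. Others are stated as exceptions, or are marker genes, Barhl2, Gm15446, Farsa, Tsn, Rpl5, Gm26387, Ttll5, Gm26169, Gm29491 and the genes inside Tgfbr3, named after values were seen.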

Additional observations from a re-analysis of the deposited data

Results flagged for a closer look

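Reads on transgene sequences, which no comparison used, differed by genotype. Cre-ERT2 had 10, 16 and 17 reads in Rest_het replicates 1, 2 and 3, or 43 in all, against 0 in each WT library. LacZ had 0 reads in each Rest_het library against 27, 51 and 43 reads in WT replicates 1, 2 and 3, or 121 in all.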

How the results depend on the processing

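The log2 fold change of Tgfbr3 ran from 3.78 to 4.53 with single libraries left out. It kept its direction under all 14 alternatives, which is no test, since Tgfbr3 was chosen for this difference and its groups lay far apart. The count of called pathway members besides Tgfbr3 was 0 under all 14. Over all genes, 19 calls became 131 with DESeq2, 107 with no filter and 6 with the replicate block, and 12 to 35 with single libraries left out (12 without WT replicate 1, 35 without WT replicate 2, 32 without Rest_het replicate 3). Calls among the wider pathway genes numbered 1 with DESeq2 and with no filter, against 0 otherwise, Smad1 each time (log2 fold change -0.55). Calls within 1 Mb of Tgfbr3 likewise numbered 1 under the same settings, Barhl2 each time. The cause of these moves was not tested. Same-numbered libraries did not pair: deviations from the genotype means correlated at 0.011, 0.037 and -0.14 for numbers 1, 2 and 3, and not every library correlated best with its own number. The sign of 5 genes depended on the setting or on single libraries. Tgfbr1, 0.00 with all libraries, was -0.0064 with DESeq2 scaling, -0.0052 with DESeq2, -0.011 with the replicate block, -0.019 with upper-quartile scaling, -0.018 with limma, -0.00050 with no filter and -0.00015 with strand columns added; single libraries left out gave -0.14 to 0.13. Smad2 was -0.0011 with upper-quartile scaling and ran from -0.059 to 0.084 with libraries left out, Inhbb from -0.048 to 0.20, Tgfb2 from -0.021 to 0.42 and Smad7, -0.40 with all libraries, from -0.68 to 0.33, the last without WT replicate 1. With 3 libraries a genotype, a 1.5-fold change was rarely called in simulated counts, so a difference of that size among the members would usually have been missed by edgeR.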
